A study of Homo sapiens with 14 samples.

Results

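REPAIRv2 left the shortest lists of positions read from A to G among the 4 RNA base editors compared in HEK293T cells, a human embryonic kidney line. The sites described here are all positions that at least 1 of its 4 libraries listed as read from A to G. They numbered 205 of the 26172 sites listed by any of the 14 libraries, and each was followed through the lists of DECOR, dCas13d-ADAR and REPAIR.t1. The sites were thus selected on their A-to-G rates in the REPAIRv2 libraries, so their REPAIRv2 numbers and levels are given as a description, without a test.

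All cells carried an editor, and no library came from cells without one. The groups of 2 libraries each were REPAIRv2 with the EZH2_A22 guide, REPAIRv2 with NT, DECOR with the MALAT1 guide, dCas13d-ADAR with the EZH2 guide, dCas13d-ADAR with NT, REPAIR.t1 with the EZH2_A22 guide and REPAIR.t1 with NT. The labels spell out neither NT nor A22, and they say neither how the editors were delivered nor whether replicate libraries stem from separate cultures. The p-values below therefore reflect only the scatter among these libraries, possibly technical. DECOR was run with MALAT1 alone and read for 62 and 160 cycles, against 25 and 97 for all other libraries, so that the effects of its editor, of its guide and of read length cannot be told apart.

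As background, a Cas13 editor joins a catalytically inactive Cas13, which a guide RNA brings to a chosen transcript, to a deaminase domain of the ADAR family. ADAR enzymes turn adenosine into inosine in double-stranded RNA, and inosine is read as guanosine in sequencing. An overexpressed deaminase domain can also act on transcripts that the guide does not match. REPAIRv2 carries a mutated ADAR2 deaminase domain that was engineered to lower such off-target editing, and REPAIR.t1 is built on a compact Cas13b. The series concerns an evolved bacterial adenosine deaminase, although the labels do not say which editor holds it. EZH2 encodes the methyltransferase of the Polycomb repressive complex 2, and MALAT1 is a long nuclear RNA.

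The deposited value of each site is its A-to-G rate, a fraction taken here as the editing level. Positions are those of hg19. The lists give no strand, gene, read count or coverage, so that the depth behind a level is unknown and no counting interval is given. Absence from a list can mean no editing, a level under the threshold of the authors, or too few reads. Presence in a list does not show that the editor made the change. Without a library from cells that lack an editor, A-to-G reads present in such cells cannot be told apart from its work. Genes, neighbouring bases and genomic variants at these positions were not analysed here.

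The REPAIRv2 libraries listed different sites for the most part. The lists held 87 and 101 sites with EZH2_A22 and 46 and 46 sites with NT. Of the 205 sites, 153 (74.6%) were in 1 library, 34 (16.6%) in 2, 13 (6.34%) in 3 and 5 (2.44%) in all 4. By comparison, 13.5% of dCas13d-ADAR sites and 9.89% of REPAIR.t1 sites were in all 4 libraries of their editor. The 2 EZH2_A22 libraries shared 29 sites, which were 33.3% of the first list and 28.7% of the second. The 2 NT libraries shared 11 sites, or 23.9% of each list. The 4 pairs of an EZH2_A22 and an NT library shared 12, 14, 17 and 20 sites, which were 13.8% to 19.8% of the EZH2_A22 list and 26.1% to 43.5% of the NT list. Where 2 REPAIRv2 libraries listed the same site, their levels differed by a median of 0.0423 to 0.0752 and by 0.278 at most, depending on the pair.

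Most REPAIRv2 sites were also listed by the other Cas13 editors, and the share was higher for sites that recurred among the REPAIRv2 libraries. Each dCas13d-ADAR library listed 69.8% to 74.6% of the 205 sites, each REPAIR.t1 library 68.8% to 74.6%, and the 2 DECOR libraries 6.34% and 5.85%. The DECOR lists held 5516 and 5855 sites, against 5730 to 5834 in dCas13d-ADAR and 4356 to 4784 in REPAIR.t1. All 8 dCas13d-ADAR and REPAIR.t1 libraries listed 92 of the REPAIRv2 sites. These were 50.5% of the 182 REPAIRv2 sites found in any of those lists, against 3.04% (517 of 17012) of the sites there that REPAIRv2 did not list. Sites in 1 REPAIRv2 library were in all 8 in 37.3% of cases. For sites in 2, 3 and 4 REPAIRv2 libraries this was 58.8%, 76.9% and 100%. Recurrence did not go with a steadily higher REPAIRv2 level, whose median was 0.250, 0.236, 0.223 and 0.337 for sites in 1, 2, 3 and 4 libraries. In dCas13d-ADAR the median level of the same sites was 0.387, 0.453, 0.461 and 0.687, and in REPAIR.t1 it was 0.385, 0.381, 0.425 and 0.615.

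**Figure D1:**
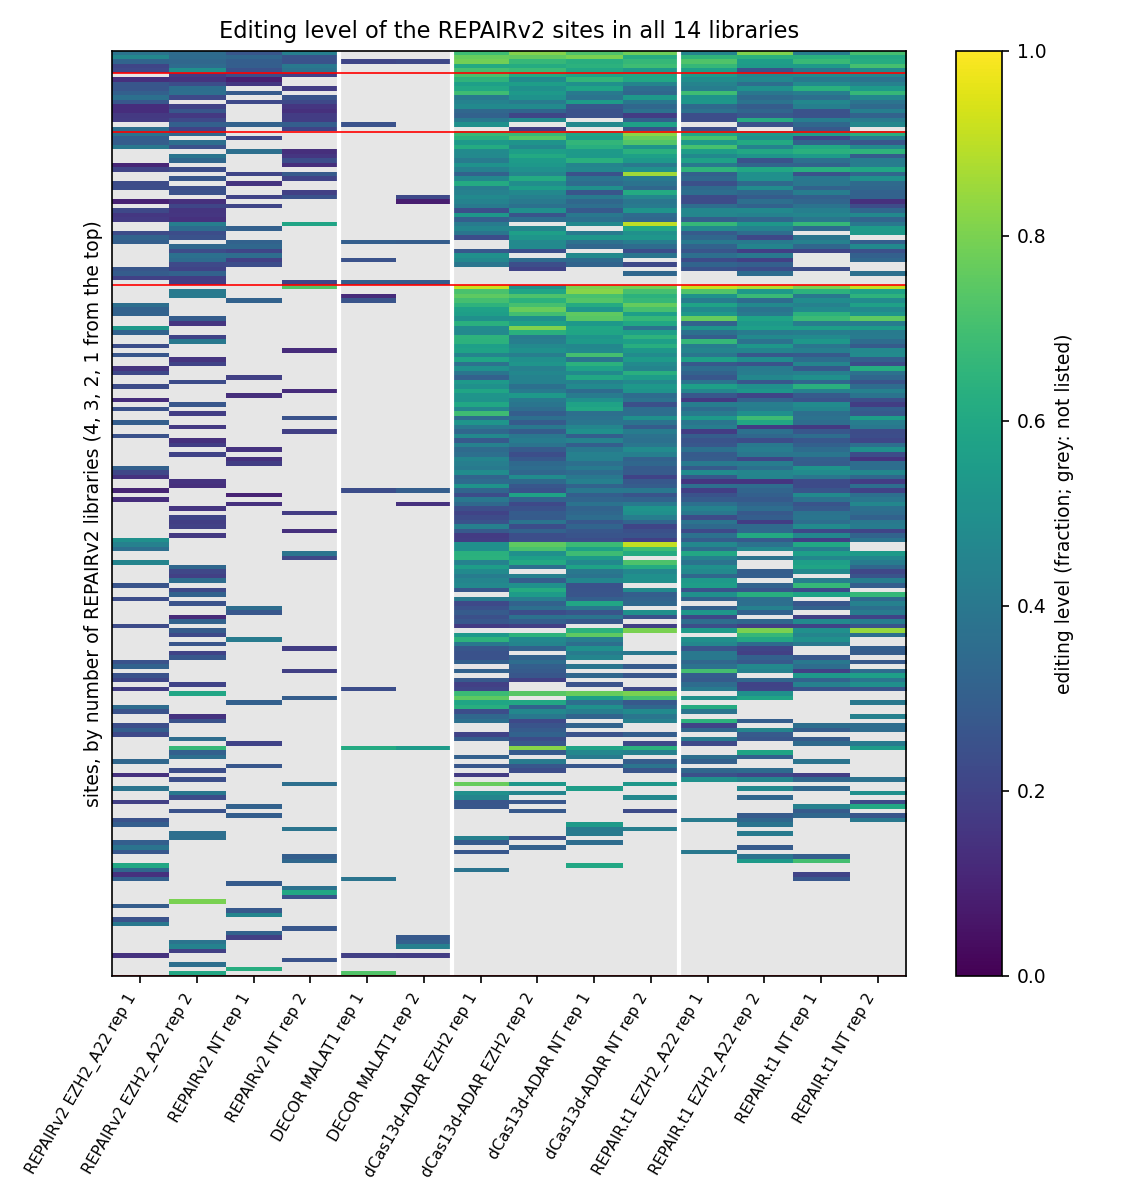
Editing level (fraction, colour) of each of the 205 REPAIRv2 sites (rows, with red lines parting those in 4, 3, 2 and 1 REPAIRv2 libraries) in each of the 14 libraries (columns), grey where not listed. The REPAIRv2 and DECOR columns are mostly empty, the DECOR ones holding 13 and 12 sites, whereas the dCas13d-ADAR and REPAIR.t1 columns hold 141 to 153 sites each.

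The 5 sites in all 4 REPAIRv2 libraries were listed by all 8 dCas13d-ADAR and REPAIR.t1 libraries as well. At chr15:79614895 the REPAIRv2 levels were 0.382 and 0.348 with EZH2_A22 and 0.273 and 0.432 with NT. The dCas13d-ADAR levels there were 0.688, 0.815, 0.722 and 0.778, and the REPAIR.t1 levels 0.455, 0.806, 0.425 and 0.704. All REPAIRv2 values lay below all dCas13d-ADAR values, while the highest of them exceeded the lowest REPAIR.t1 value. At chr1:156209533 REPAIRv2 gave 0.464, 0.350, 0.333 and 0.258, against 0.767, 0.760, 0.8 and 0.619 in dCas13d-ADAR and 0.655, 0.636, 0.636 and 0.609 in REPAIR.t1. The 4 REPAIR.t1 libraries lay close together at that site, with a spread of 0.0191 (SD, n = 4), and no REPAIRv2 value reached them. At chr12:48362360 REPAIRv2 gave 0.208, 0.348, 0.3 and 0.4, against 0.609, 0.615, 0.643 and 0.688 in dCas13d-ADAR and 0.667, 0.545, 0.545 and 0.704 in REPAIR.t1, again without overlap. At chr11:65048599 the REPAIRv2 levels spread most, at 0.222, 0.5, 0.250 and 0.375. They stayed under the dCas13d-ADAR levels of 0.706, 0.682, 0.6 and 0.542 but overlapped with the REPAIR.t1 levels of 0.563, 0.250, 0.389 and 0.478.

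The fifth, chr1:235277158, was the only REPAIRv2 site listed by every one of the 14 libraries. REPAIRv2 gave 0.321, 0.333, 0.3 and 0.250 there, DECOR 0.211 and 0.217, dCas13d-ADAR 0.788, 0.667, 0.625 and 0.667, and REPAIR.t1 0.725, 0.556, 0.675 and 0.618. The editors fell into separate ranges, with both DECOR values lowest, the REPAIRv2 values next, and dCas13d-ADAR and REPAIR.t1 overlapping at the top.

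The 13 sites in 3 REPAIRv2 libraries had mean REPAIRv2 levels of 0.127 to 0.319. Their means were 0.216 to 0.623 in dCas13d-ADAR and 0.259 to 0.546 in REPAIR.t1, and the REPAIRv2 mean was the lowest of the 3 at 12 of the 13. The widest gap was at chr15:72491603. REPAIRv2 gave 0.138 and 0.150 with EZH2_A22 and 0.0930 in NT replicate 1, against 0.651, 0.486, 0.659 and 0.6 in dCas13d-ADAR and 0.489, 0.463, 0.411 and 0.382 in REPAIR.t1. The REPAIRv2 mean at that site was 0.212 of the dCas13d-ADAR mean, the smallest ratio among sites in all 4 dCas13d-ADAR libraries. Apart from 1 exception, this ratio was highest among the 13, at 0.719, at chr11:102962548, where REPAIRv2 gave 0.167, 0.167 and 0.179, dCas13d-ADAR 0.313, 0.211, 0.250 and 0.176, and REPAIR.t1 0.240, 0.280, 0.250 and 0.318. The REPAIRv2 and dCas13d-ADAR levels overlapped there. That exception was chr17:663291, at 0.364, 0.2 and 0.2 in REPAIRv2. Only 2 dCas13d-ADAR libraries (0.182 and 0.250) and 2 REPAIR.t1 libraries (0.240 and 0.278) listed it, and the ranges overlapped. The site at chr17:41106898 was the other one of the 13 that no more than 3 libraries of each of these editors listed, and the only one of the 13 in a DECOR list, at 0.250.

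Between these extremes, 9 sites in 3 libraries are given by their means. At chr3:133331383 REPAIRv2 averaged 0.319 ± 0.0402 (SD, n = 3), against 0.493 ± 0.155 in dCas13d-ADAR and 0.546 ± 0.152 in REPAIR.t1 (SD, n = 4 each). At chr19:16302148 it averaged 0.198 ± 0.0292, against 0.623 ± 0.0619 and 0.481 ± 0.0423 in the same order, and its highest value of 0.231 lay far under the lowest of the others, 0.450. The remaining 7 were chr10:76970657, chr2:203160483, chr9:95036798, chr1:150238125, chr14:53184956, chr2:74438358 and chr6:111214853. Their REPAIRv2 means were 0.417 to 0.613 of their dCas13d-ADAR means and 0.453 to 0.670 of their REPAIR.t1 means.

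**Figure D2:**
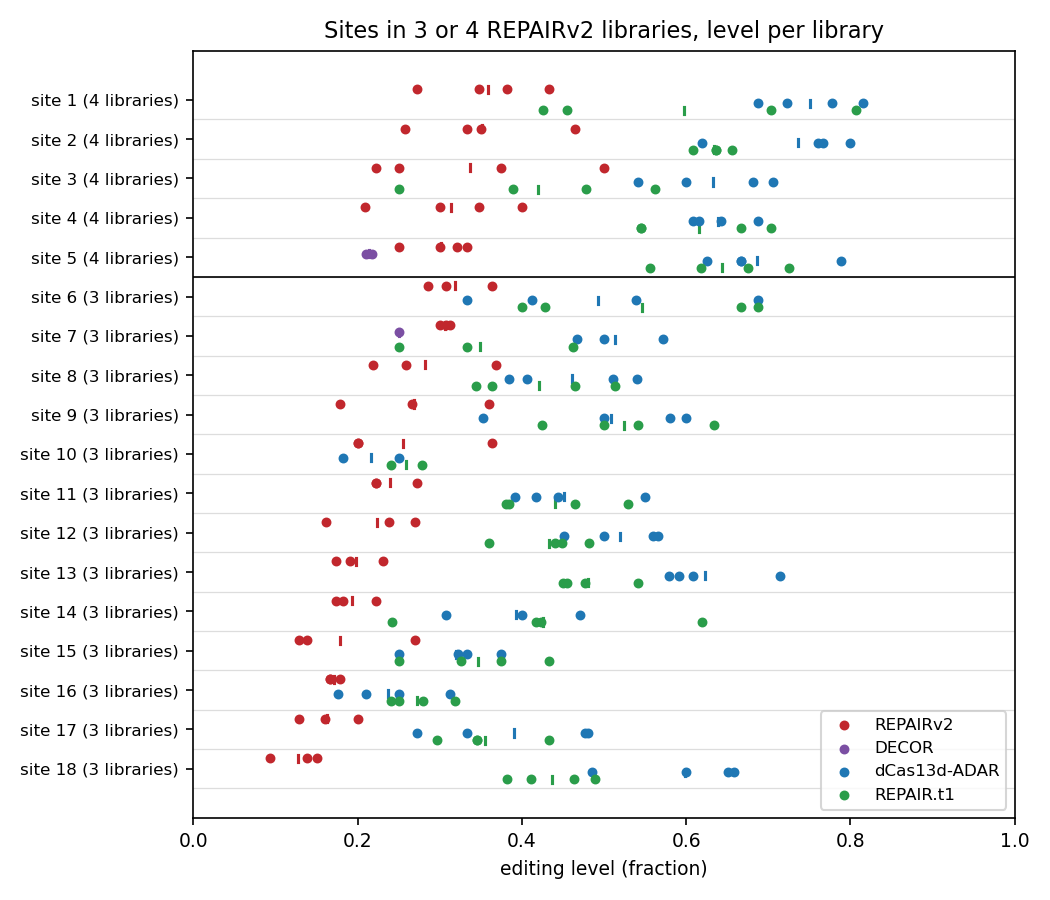
Editing level (fraction, x axis) in each library at the 18 sites listed by 4 (above the line) or 3 REPAIRv2 libraries, one site per row and one point per library, coloured by editor. At the top 5 sites the REPAIRv2 points lie at 0.208 to 0.5 and the dCas13d-ADAR points at 0.542 to 0.815.

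REPAIRv2 levels were mostly below those of dCas13d-ADAR and REPAIR.t1 at shared sites. At the 114 REPAIRv2 sites in all 4 dCas13d-ADAR libraries, the median level was 0.228 in REPAIRv2 and 0.452 in dCas13d-ADAR, and the REPAIRv2 mean was lower at 113. The median ratio was 0.5, with quartiles of 0.422 and 0.615. At the 113 sites in all 4 REPAIR.t1 libraries, the medians were 0.222 in REPAIRv2 and 0.398 in REPAIR.t1, with the REPAIRv2 mean lower at 111 and a median ratio of 0.568 (quartiles 0.459 and 0.712). Over the 175 sites shared with any library of each editor, the median ratio was 0.580 to dCas13d-ADAR and 0.644 to REPAIR.t1, and REPAIRv2 was higher at 12 and 11 sites. Among sites in all 4 libraries of the other editor, those in at least 2 REPAIRv2 libraries were lower in REPAIRv2 at 38 of 38 sites against dCas13d-ADAR and at 41 of 41 against REPAIR.t1. At the 19 sites shared with any DECOR library, REPAIRv2 was lower at 7 and higher at 11, with medians of 0.301 in REPAIRv2 and 0.261 in DECOR and a median ratio of 1.02. At the 6 sites in both DECOR libraries it was lower at 3 and higher at 3, with medians of 0.248 in REPAIRv2 and 0.279 in DECOR and a median ratio of 0.915. These values compare libraries in which REPAIRv2 had to pass its own listing threshold, and most sites have a REPAIRv2 level from 1 library.

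Sites with a higher level in one editor tended to have a higher level in the others. Over the 92 sites in all 8 dCas13d-ADAR and REPAIR.t1 libraries, Pearson's r was 0.579 and Spearman's rho 0.607 between REPAIRv2 and dCas13d-ADAR mean levels. They were 0.653 and 0.593 between REPAIRv2 and REPAIR.t1, and 0.710 and 0.699 between dCas13d-ADAR and REPAIR.t1. The points are sites that share the same libraries and the choice by REPAIRv2, so these values are a description. Of these 92 sites, only chr1:55317828, picked here after its values were seen, had a REPAIRv2 mean that was not below both others. It was at 0.5 in REPAIRv2 (EZH2_A22 replicate 1 alone), 0.182, 0.240, 0.241 and 0.190 in dCas13d-ADAR and 0.296, 0.280, 0.185 and 0.385 in REPAIR.t1. The single REPAIRv2 value was above all 8 others.

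**Figure D3:**
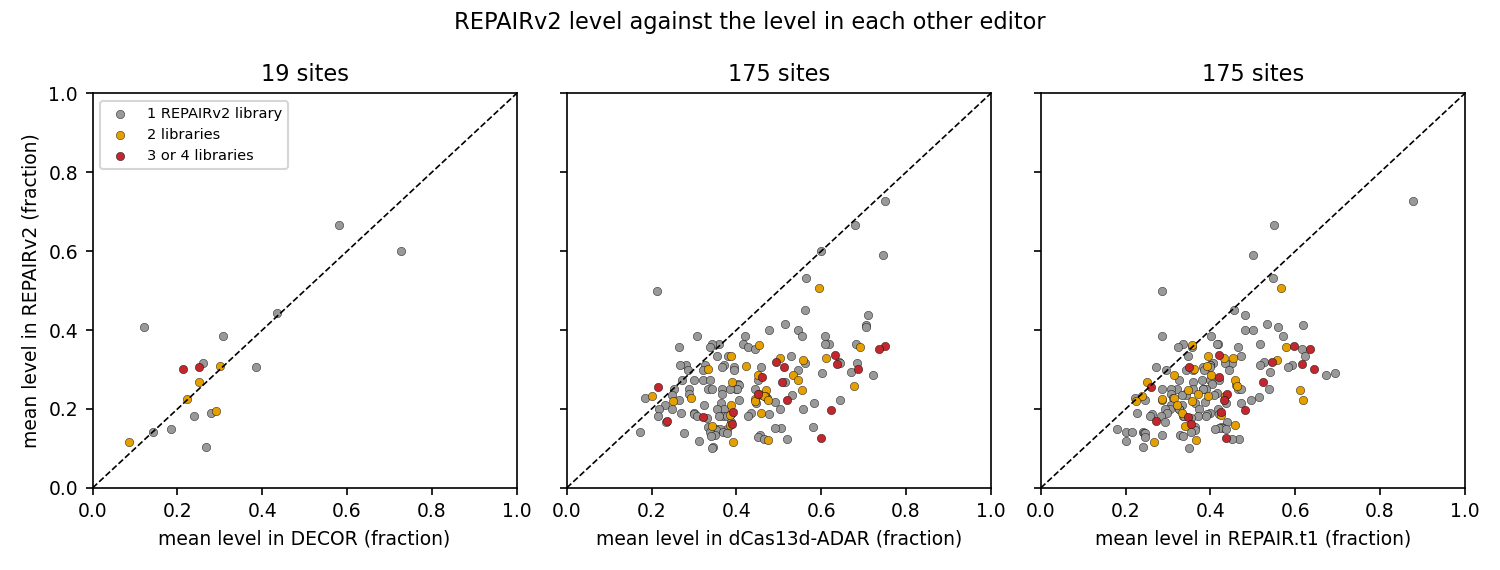
Mean REPAIRv2 level (y axis, fraction) of each shared site against its mean level in DECOR (19 sites), dCas13d-ADAR (175) and REPAIR.t1 (175), over the libraries that list it, with the line of equal levels dashed and colour showing how many REPAIRv2 libraries list the site. Points lie around the line for DECOR and mostly under it for the other editors, with REPAIRv2 lower at 161 and 164 sites.

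In the lists of dCas13d-ADAR and REPAIR.t1, the REPAIRv2 sites had higher levels than the other listed sites. In the 4 dCas13d-ADAR libraries their median level was 0.429 to 0.443, against 0.263 to 0.267 for all other listed sites, a difference of 0.171 ± 0.00461 (SD, n = 4 libraries). In the 4 REPAIR.t1 libraries it was 0.381 to 0.391, against 0.250 to 0.261, a difference of 0.131 ± 0.00897 (SD, n = 4). Levels of at least 0.5 were held by 34.0% to 41.3% of the REPAIRv2 sites in dCas13d-ADAR, against 5.54% to 6.92% of the other sites. In REPAIR.t1 these shares were 20% to 26.5% and 3.70% to 4.47%. DECOR showed a smaller gap, with medians of 0.250 and 0.283 for the 13 and 12 REPAIRv2 sites it listed, against 0.211 and 0.208 for its other sites. The REPAIRv2 sites were also more often in all 8 dCas13d-ADAR and REPAIR.t1 lists (50.5% against 3.04%), so these gaps mix level with recurrence. Among sites in all 8, the median of the mean level over the 8 was 0.420 for 92 REPAIRv2 sites and 0.319 for 517 others.

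Seen from those lists, the share of sites that REPAIRv2 also listed was higher among sites of higher level. Among sites in all 4 dCas13d-ADAR libraries, REPAIRv2 listed 0 of 196 with a mean level of 0.1 to 0.2, 1.13% (6 of 531) at 0.2 to 0.3, 12.1% (30 of 247) at 0.4 to 0.5 and 46.7% (21 of 45) at 0.6 and over. Among sites in all 4 REPAIR.t1 libraries it listed 0.613% (1 of 163), 3.78% (15 of 397), 25.6% (34 of 133) and 69.2% (9 of 13) at the same levels. The top REPAIR.t1 bin holds under 20 sites, and the 0.5 to 0.6 bin below it, with 29 sites, was at 44.8%. The share also differed by the number of dCas13d-ADAR and REPAIR.t1 libraries that listed a site, at 0.0478% (4 of 8372) for 1 library, 5.14% (27 of 525) for 7 and 15.1% (92 of 609) for all 8. Of the 10 sites with the highest mean level, REPAIRv2 listed 7 in dCas13d-ADAR and 9 in REPAIR.t1. How depth at a site bears on being listed by both editors was not tested, since the lists hold no coverage.

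**Figure D4:**
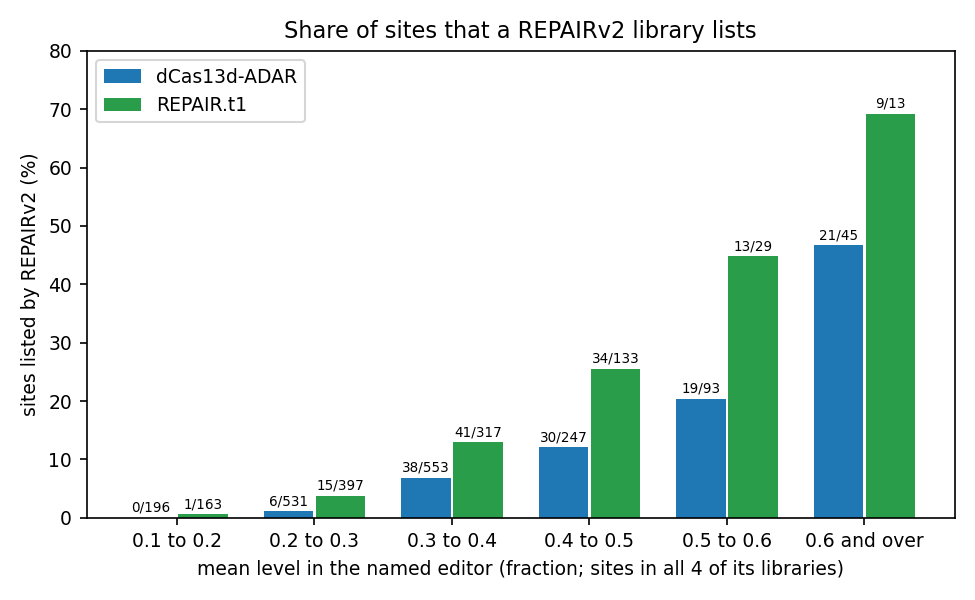
Share of sites (y axis, percent) that a REPAIRv2 library also lists, by mean level in dCas13d-ADAR or REPAIR.t1 (x axis, fraction), for sites in all 4 libraries of that editor, with numbers of sites over the bars. The bars climb to 46.7% for dCas13d-ADAR and 69.2% for REPAIR.t1 in the highest bin.

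A high level in the other editors did not always come with a REPAIRv2 listing. The 5 sites with the highest mean over the 8 dCas13d-ADAR and REPAIR.t1 libraries that no REPAIRv2 library listed were chr20:377385, chr5:172195559, chr7:148922367, chr11:75283477 and chr20:377574. The first averaged 0.717 ± 0.101 in dCas13d-ADAR and 0.657 ± 0.107 in REPAIR.t1 (SD, n = 4 each), and the fifth 0.586 ± 0.0877 and 0.608 ± 0.122 in the same order. On the other side, the 5 lowest levels among sites in 1 REPAIRv2 library were 0.1 at chr16:731802, 0.103 at chr19:3984177, 0.118 at chr22:39918128 and 0.125 at both chr1:154247459 and chr6:74228115. Their mean levels in dCas13d-ADAR were 0.313 to 0.520.

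The main test of whether levels at REPAIRv2 sites differed between dCas13d-ADAR and REPAIR.t1 took only sites that all 8 of their libraries listed. Neither editor was used to choose the REPAIRv2 sites, but this filter rests on the lists of both. It kept 92 of the 182 REPAIRv2 sites in any of those lists. Sites that a library of either editor left unlisted were outside this test, and some of them entered the alternative fits given below. The comparison used log2 odds of editing in limma, with the guide as a covariate, over all 609 sites listed in the 8 libraries. The EZH2 guide of dCas13d-ADAR and the EZH2_A22 guide of REPAIR.t1 counted as the same level. This also held in the fits with 1 guide and in the test of the guide effect between editors. The labels do not say whether these guides are the same, so a difference between them cannot be told apart from the editor. Of these, 44 passed an adjusted p of 0.05 (7.22%), 40 higher in dCas13d-ADAR (6.57%) and 4 lower (0.657%). Of the 92 REPAIRv2 sites tested, 8 passed (8.70%), 7 higher and 1 lower, a share near that of all sites. The median difference was 0.41 log2 units for the REPAIRv2 sites and 0.34 for all 609, and 64 of 92 (69.6%) and 452 of 609 (74.2%) were higher in dCas13d-ADAR. All 4 dCas13d-ADAR values lay above all 4 REPAIR.t1 values at 11 REPAIRv2 sites (12.0%, against 11.5% of all 609) and below them at 2 (2.17%, against 1.81% of all 609).

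The clearest difference was at chrX:24095325. Its levels were 0.7, 0.640, 0.733 and 0.667 in dCas13d-ADAR, against 0.419, 0.348, 0.485 and 0.481 in REPAIR.t1, without overlap. The difference was 1.49 log2 units of odds (SE 0.35, limma adjusted p = 0.00643), and it stayed under 0.05 whichever library was left out, at limma adjusted p-values of 0.00593 to 0.0453. It stayed under 0.05 in 15 of 17 alternatives run, with a highest value of 0.185. At chr12:10854571 the levels were 0.351, 0.343, 0.436 and 0.275 in dCas13d-ADAR, against 0.156, 0.154, 0.229 and 0.176 in REPAIR.t1, and at chr16:2303454 they were 0.515, 0.412, 0.5 and 0.378 against 0.167, 0.320, 0.258 and 0.240. Neither site's groups overlapped, and both had a limma adjusted p of 0.0155, with differences of 1.28 (SE 0.36) and 1.33 (SE 0.36). Each passed in 4 of the 8 fits that left out 1 library, with limma adjusted p-values of up to 0.101 and 0.1. The reverse held at chr11:125453683, with 0.172, 0.241, 0.259 and 0.261 in dCas13d-ADAR, against 0.371, 0.609, 0.462 and 0.318 in REPAIR.t1. All dCas13d-ADAR values lay under all REPAIR.t1 values at that site, with a difference of -1.34 (SE 0.37, limma adjusted p = 0.0155). It passed in 5 of the 8 such fits, with a limma adjusted p of up to 0.139.

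The other 4 sites that passed were higher in dCas13d-ADAR. They were chr11:65048599, described above, chr19:10421104, chr1:227922376 and chr11:65047085, with differences of 1.16 to 1.33 log2 units and limma adjusted p-values of 0.0271 to 0.0418. They passed in 4, 3, 4 and 2 of the 8 fits that left out 1 library, with limma adjusted p-values of up to 0.215. The libraries of the editors overlapped at chr11:65048599, chr19:10421104 and chr1:227922376. At chr11:65047085 they did not, at 0.571, 0.773, 0.526 and 0.706 in dCas13d-ADAR against 0.476, 0.381, 0.478 and 0.471 in REPAIR.t1. The count of 8 depended on single libraries, and the share over all sites fell as well. Without dCas13d-ADAR NT replicate 1 the count was 1 of 96 (1.04%, against 1.53% of all 654). Without REPAIR.t1 EZH2_A22 replicate 2 it was 2 of 97 (2.06%, against 2.56% of all 704). Without REPAIR.t1 NT replicate 2 it was 3 of 96 (3.125%, against 2.66% of all 714). Without dCas13d-ADAR EZH2 replicate 1 it was 5 of 95 (5.26%, against 5.51% of all 653). With 1 guide at a time, 1 of 106 REPAIRv2 sites passed over the NT libraries (0.943%, against 0.191% of all 1046). It was not among the 8 sites of the main test, which all had limma adjusted p-values of at least 0.0728 there. Over the EZH2 libraries 0 of all 1101 sites passed (0%), REPAIRv2 sites included. There, 16 of 119 REPAIRv2 sites (13.4%) and 114 of all 1101 (10.4%) had an unadjusted p under 0.05 in limma.

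**Figure D5:**
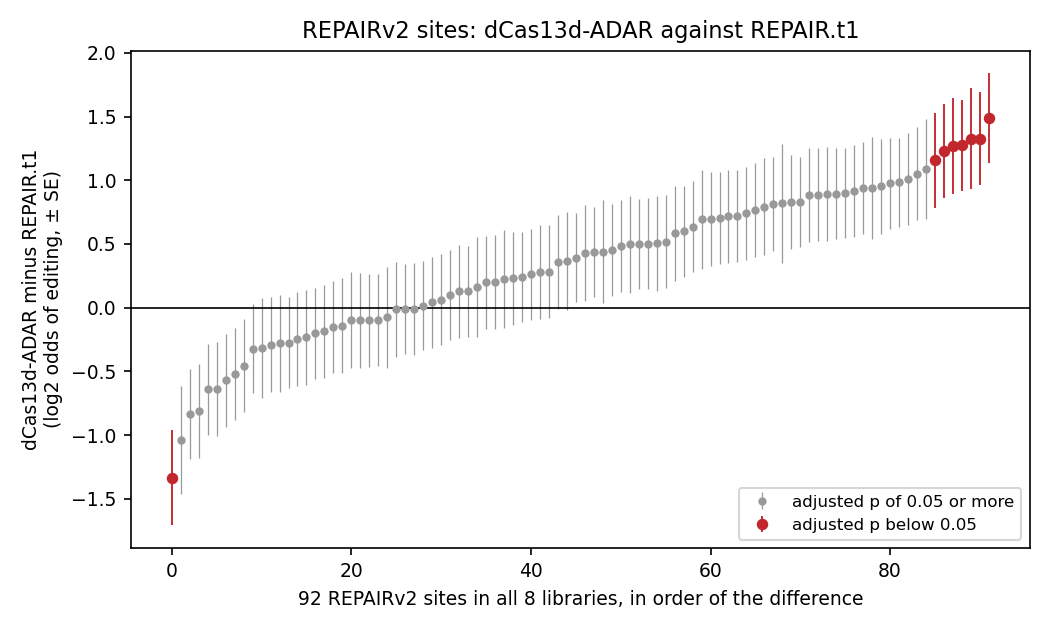
Difference in level between dCas13d-ADAR and REPAIR.t1 (y axis, log2 odds, positive where dCas13d-ADAR is higher, bars ± SE) at the 92 REPAIRv2 sites listed in all 8 libraries, in rising order along the x axis. Sites with a limma adjusted p below 0.05, in red, are 7 at the upper end and 1 at the lower.

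No single site passed the test of the guide in dCas13d-ADAR or REPAIR.t1. Between EZH2 and NT in dCas13d-ADAR, 0 of the 1665 sites tested passed (0%), REPAIRv2 sites included. An unadjusted p under 0.05 in limma was found at 11 of the 114 REPAIRv2 sites (9.65%), against 87 of all 1665 (5.23%), and the lowest adjusted p of a REPAIRv2 site was 0.617. Between EZH2_A22 and NT in REPAIR.t1, 0 of 1053 sites passed (0%). An unadjusted p under 0.05 was found at 5 of 113 REPAIRv2 sites (4.42%), against 61 of all 1053 (5.79%), and the lowest limma adjusted p was 0.539. In simulations of these comparisons, 81% of changes of 2 log2 units were recovered in dCas13d-ADAR and 90% in REPAIR.t1, but 10% and 24% of changes of 1 unit, so small guide effects would mostly be missed. The simulations changed 100 sites by each size and gave all sites the same spread. Recovery where only a few sites change was not tested.

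By guide, 124 of the 205 sites were in EZH2_A22 libraries of REPAIRv2 only, 46 in NT libraries only and 35 in both. The sites of both guides were in a dCas13d-ADAR or REPAIR.t1 list in 97.1% of cases, the EZH2_A22 sites in 91.1% and the NT sites in 76.1%. The medians that follow are each over the sites listed with that guide, which need not be the same sites. Their differences were not tested. Sites of EZH2_A22 only had median levels of 0.406 with EZH2 and 0.419 with NT in dCas13d-ADAR, and 0.382 with EZH2_A22 and 0.373 with NT in REPAIR.t1. Sites of NT only had medians of 0.385 with EZH2 and 0.433 with NT in dCas13d-ADAR, and 0.390 with EZH2_A22 and 0.4 with NT in REPAIR.t1. At the 35 shared sites, the REPAIRv2 level was higher with EZH2_A22 at 26 and lower at 8, with medians of 0.282 with EZH2_A22 and 0.211 with NT. The median of the differences per site was 0.0423 (range -0.155 to 0.229). The same libraries chose these sites, so the difference was not tested.

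DECOR listed 19 of the 205 sites, 6 of them in both its libraries. Of the 182 REPAIRv2 sites also in dCas13d-ADAR or REPAIR.t1 lists, DECOR listed 13 (7.14%), against 1.94% (330 of 17012) of the other sites in those lists. These 182 were also more often in all 8 of those lists (50.5% against 3.04%), and how this bears on the gap was not tested. Of the 23 REPAIRv2 sites in none of those lists DECOR held 6 (26.1%). Against dCas13d-ADAR, 25 sites were listed in all 6 libraries, and 12 of them (48%) passed in limma, all lower in DECOR. Both DECOR values lay under all dCas13d-ADAR values at 15 of the 25 (60%), 1 of the 2 REPAIRv2 sites among them. The 2 REPAIRv2 sites among them differed in outcome. At chr1:235277158, whose values are given above, the DECOR level of 0.214 ± 0.00485 (SD, n = 2) stood against 0.687 ± 0.0703 in dCas13d-ADAR (SD, n = 4), a difference of -2.96 log2 units (SE 0.35, limma adjusted p = 2.6e-05). At chr19:3984177 DECOR gave 0.235 and 0.298, against 0.327, 0.250, 0.4 and 0.4 in dCas13d-ADAR, and the difference of -0.50 (SE 0.35) did not pass (limma adjusted p = 0.235).

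Of the other 4 sites in both DECOR libraries, the mean REPAIRv2 level was higher than that in DECOR at 2 and lower at 2. At chr3:142752124 REPAIRv2 gave 0.304 and 0.313 and DECOR 0.304 and 0.296, all within a narrow range, while dCas13d-ADAR gave 0.471, 0.375 and 0.424 in 3 libraries and REPAIR.t1 0.412, 0.414, 0.440 and 0.304. At chrX:77083891 the single REPAIRv2 level of 0.667 stood beside 0.611 and 0.550 in DECOR, 0.818, 0.579 and 0.643 in dCas13d-ADAR and 0.550 in 1 REPAIR.t1 library. At chr4:57326329 REPAIRv2 gave 0.148 in 1 library and DECOR 0.188 and 0.182, and neither dCas13d-ADAR nor REPAIR.t1 listed it. At chr6:42855057 REPAIRv2 gave 0.182 and 0.208, lower than the DECOR levels of 0.296 and 0.286.

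The 23 REPAIRv2 sites that no dCas13d-ADAR or REPAIR.t1 library listed were mostly seen once, 21 of them in 1 library. Their median REPAIRv2 level was 0.294 (range 0.148 to 0.8), against 0.250 for the other 182. Only chr6:42855057, given above, and chr5:180670790 were in 2 REPAIRv2 libraries. The site at chr5:180670790 was at 0.194 and 0.184 in the 2 EZH2_A22 libraries and in no other list of the 14. In all, 17 sites were listed by no editor but REPAIRv2. The 6 that DECOR shared were chr6:42855057, chr4:57326329, chr3:10195063, chr3:10195068, chr4:2940026 and chrX:153061314. At chr4:2940026 REPAIRv2 gave 0.444 in EZH2_A22 replicate 2, next to 0.435 in 1 DECOR library, and at chrX:153061314 it gave 0.6, next to 0.727 in 1 DECOR library.

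The highest REPAIRv2 levels came mostly from sites in 1 REPAIRv2 library, as most of the 205 sites were. Of the 10 sites with the highest mean REPAIRv2 level, 9 were in 1 REPAIRv2 library, against 153 of all 205 (74.6%). Of the 10, 4 were in no dCas13d-ADAR or REPAIR.t1 list, against 23 of all 205. These 4 were chr12:53583966 at 0.8, chr7:56130743 at 0.622, chr12:120898999 at 0.6 and chrX:153061314. The site chr22:24970720 was at 0.6 in 1 REPAIRv2 library and at 0.6 in 1 dCas13d-ADAR library. By contrast, chr3:195778213 had a level of at least 0.5 in every library that listed it. It was at 0.727 in REPAIRv2 NT replicate 2, 0.917, 0.5, 0.8 and 0.786 in dCas13d-ADAR and 0.917, 0.882, 0.8 and 0.909 in REPAIR.t1. At chr6:42856330 the REPAIRv2 level of 0.533 lay inside the range of dCas13d-ADAR (0.375 to 0.808) and of REPAIR.t1 (0.519 to 0.565). At chr8:48890109 it was 0.591, under all 4 dCas13d-ADAR values of 0.682 to 0.8. The remaining ones were chrX:77083891, given above, and chr2:231685066, at 0.429 and 0.583 in 2 REPAIRv2 libraries.

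In position, REPAIRv2 sites were spread over the genome and rarely next to each other. Only 4 pairs lay within 100 bases, at 33 bases (chr10:105063134 and chr10:105063167), 1 base (chr12:120898998 and chr12:120898999), 5 bases (chr3:10195063 and chr3:10195068) and 76 bases (chr4:57326253 and chr4:57326329). Of these, the last 3 pairs consisted of sites that no dCas13d-ADAR or REPAIR.t1 library listed. A dCas13d-ADAR or REPAIR.t1 site lay within 50 bases of 42.9% of the REPAIRv2 sites, against 35.9% of the other sites of those lists. Chromosome 1 held 14.6% of the REPAIRv2 sites, against 12.0% of those other sites, chromosome 2 held 8.29% against 5.24%, and chromosome 19 held 5.37% against 9.99%. These shares are given as a description, and differences in them were not tested.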

How the data were processed

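Polyadenylated RNA of HEK293T cells was sequenced in 14 directional libraries, per the labels' protocols. For each library the authors deposited a list of positions with an A-to-G rate, a fraction, per the file headers. The submitters' processing notes name cutadapt, STAR 2.6.1b, hg19 and GRCh37 without a role. Not given in the sources used here were the site caller, its thresholds and any coverage minimum. Groups came from the titles. Lists were joined by chromosome and position. The members, site lists and tests were chosen with earlier results of these data known.

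Levels were compared as log2 odds (0.01 added to the level and its complement) in limma 3.58.1 under R 4.3.3, with empirical Bayes moderation and Benjamini-Hochberg adjustment over all sites listed in every library compared, at a threshold of 0.05. A count test had been the first choice and limma the fallback, used because the lists hold no reads. On simulated data, 59% of changes of 1 log2 unit and 99% of 2 units were recovered between dCas13d-ADAR and REPAIR.t1 (609 sites, 100 changed by each size). Between DECOR and dCas13d-ADAR, 0% and 100% were recovered (25 sites, 2 changed by each size). Libraries with the same replicate number did not deviate together (correlations of -0.0146 to 0.0553 outside the 25-site comparison), so the number was not used as a block.

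Named sites are those in 3 or more REPAIRv2 libraries, those passing a test between other editors and those in both DECOR libraries. Also named are sites in 2 or more REPAIRv2 libraries but no dCas13d-ADAR or REPAIR.t1 list, the 10 highest REPAIRv2 means and pairs within 100 bases. The last are the 5 lowest levels among sites in 1 REPAIRv2 library, and 5 sites that REPAIRv2 did not list. These 5 had the highest mean over the 8 dCas13d-ADAR and REPAIR.t1 libraries among sites in all 8. Alternatives were untransformed levels, 0.001 added, a trend on the mean, the replicate block, each library left out, 1 guide at a time, no guide covariate, minimum levels of 0.1 and 0.2, sites missing from 1 library, sites in at least 2 REPAIRv2 libraries and positions matched within 50 bases. The test of the guide effect between editors was added after seeing the data. Calculations used Python 3.11.15, numpy 2.4.6 and pandas 2.3.3, and figures matplotlib 3.10.9.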

Additional observations from a re-analysis of the deposited data

Results flagged for a closer look

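At chr11:65047085 the level of 0.381 in REPAIR.t1 EZH2_A22 replicate 2 stood apart from 0.476, 0.478 and 0.471 in the other REPAIR.t1 libraries. It was the only such value among 65 sets of 4 libraries examined, and chance gives about 1 in 20. The limma difference between dCas13d-ADAR and REPAIR.t1 at this site passed in 2 of the 8 fits that each left out 1 library.

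At 3 of the 92 REPAIRv2 sites in all 8 dCas13d-ADAR and REPAIR.t1 libraries, the EZH2 and NT libraries separated in opposite directions in the 2 editors. This was 3.26% of them, against 4.76% (29) of all 609 sites in these libraries. EZH2 here stands for the EZH2 guide in dCas13d-ADAR and the EZH2_A22 guide in REPAIR.t1. At chr16:57505169 the levels with EZH2 were 0.538 and 0.517 against 0.657 and 0.733 with NT in dCas13d-ADAR, and 0.538 and 0.607 against 0.313 and 0.269 in REPAIR.t1. The guide difference was -0.167 in dCas13d-ADAR and 0.282 in REPAIR.t1, a gap of -0.449. At chr3:185643410 the guide differences were 0.183 and -0.0764 in the same order (gap 0.260), and at chr16:105494 they were 0.142 and -0.0927 (gap 0.235). The added interaction test in limma, adjusted over all 609 sites, gave p-values of 0.204, 0.730 and 0.730 for the 3 sites, and passed at 0 of 609 sites (0%), with 41 at an unadjusted p under 0.05 (6.73%), among them 8 of the 92 REPAIRv2 sites (8.70%).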

How the results depend on the processing

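The lists hold no coverage, so depth limits every statement about a missing site, and the 2 libraries per group limit the tests. Between dCas13d-ADAR and REPAIR.t1, 44 sites and 8 REPAIRv2 sites passed. Leaving out 1 library gave 10 to 42 sites (1.53% to 6.23% of those tested) and 1 to 8 REPAIRv2 sites (1.04% to 8.60%). Over the NT libraries 2 of 1046 sites (0.191%) and 1 of 106 REPAIRv2 sites (0.943%) passed. Over the EZH2 libraries 0 and 0 passed, with 114 of 1101 (10.4%) and 16 of 119 (13.4%) at an unadjusted p under 0.05 in limma. With sites missing from at most 1 library, 4 REPAIRv2 sites of 119 (3.36%) and 36 of all 1134 (3.17%) passed. Between DECOR and dCas13d-ADAR, where 12 sites and 1 REPAIRv2 site passed, leaving out 1 library gave 7 to 14 sites and 1 to 3 REPAIRv2 sites, and allowing 1 missing library gave 5 of 9 REPAIRv2 sites, against 17 of all 91 (18.7%). The guide tests gave 0 calls under each alternative run. With the replicate number as a block, 44 sites and 8 REPAIRv2 sites passed between dCas13d-ADAR and REPAIR.t1, 0 in each guide test, and 8 sites and 1 REPAIRv2 site between DECOR and dCas13d-ADAR. In dCas13d-ADAR the block left 6 of 114 REPAIRv2 sites (5.26%) and 70 of all 1665 (4.2%) at an unadjusted p under 0.05 for the guide. Same-numbered libraries share only a number.

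Shares of REPAIRv2 sites per library were 6.10% in DECOR, 72.6% in dCas13d-ADAR and 72.0% in REPAIR.t1, and 88.8% were in any list of the last 2. Among sites in at least 2 REPAIRv2 libraries these were 9.62%, 88.0%, 90.4% and 96.2%. With levels of at least 0.2 the first 3 were 5.10%, 67.7% and 67.0%, and matching within 50 bases gave 15.6% in DECOR. Leaving out 1 library gave 5.85% to 6.79% in DECOR, 71.9% to 74.5% in dCas13d-ADAR, 71.1% to 73.6% in REPAIR.t1 and 87.5% to 90.7% in any.

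The excess of the median level of REPAIRv2 sites over other sites was 0.0267 in DECOR, 0.212 in dCas13d-ADAR and 0.155 in REPAIR.t1 among sites in at least 2 REPAIRv2 libraries. Leaving out 1 library gave 0.0267 to 0.0745, 0.168 to 0.181 and 0.126 to 0.139 in the same order. Each site's mean REPAIRv2 level minus its level in each library of the other editor was averaged over sites, then over that editor's libraries. This difference was -0.00180 for DECOR, -0.192 for dCas13d-ADAR and -0.152 for REPAIR.t1. It was 0.0109, -0.232 and -0.169 among sites in at least 2 REPAIRv2 libraries, and 0.0199, -0.178 and -0.137 at levels of at least 0.2. Leaving out 1 library gave -0.0295 to 0.0273 for DECOR, without a steady sign, -0.207 to -0.188 for dCas13d-ADAR and -0.167 to -0.146 for REPAIR.t1. The cause of these shifts was not tested.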
